A study of Drosophila melanogaster with 6 samples.

Results

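The odorant-binding protein genes of Drosophila melanogaster were followed through 3 pools of male body parts. Members were taken by name, as every gene with a FlyBase symbol that starts with Obp and a digit, after the FlyBase identifiers of the count tables had been matched to symbols. The annotation names 51 such genes, and 50 of them have a row among the 16942 genes counted. The remaining symbol is not analysed here, and lush, called Obp76a in older naming, falls outside the rule by its symbol.

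The libraries came from Dahomey males, a wild-type laboratory strain with no mutation or transgene named in the labels. Males were isolated at 1 d of age for 5 days, and their exposure to rival males lasted 2 h or 26 h. The pools were abdomen at 2 h, head with thorax at 26 h and head with thorax at 2 h, each of 40 body parts, and the labels do not say whether any of the pools shared males. Each pool was divided into 2 technical libraries, since the series asked what such splitting does. All pools had been with rivals, so time with rivals was not separated from time itself.

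Odorant-binding proteins are small secreted carriers of hydrophobic molecules. Those of the olfactory hairs are made by support cells and fill the lymph around the dendrites of olfactory neurons, where they bind odorants and pheromones. Other members of the family are made outside the sense organs, in taste hairs, glia, fat body or the male reproductive tract, and several pass to the female in the seminal fluid.

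Each library held between 21070598 and 34217543 counts. The labelled body parts were checked against 6 accessory gland genes and 6 eye genes. The accessory gland genes summed to 3540 counts per 1000000 counts (CPM) in abdomen at 2 h, 6.71 CPM in head-thorax at 26 h and 3.65 CPM in head-thorax at 2 h, with Acp29AB at 0 counts in the last pool. The eye genes summed to 84.3, 10635 and 11462 CPM in the same order of pools. In these bulk samples, fewer cells of a type and less RNA per cell cannot be told apart.

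The count tables carry no coordinates, so positions are those of BDGP6.54. Of the 50 members, 28 lie on chromosome arm 2R, 12 on 3R, 6 on X, 2 on 2L and 2 on 3L. Neighbours within 100000 bases form 8 clusters that hold 36 of the 51 symbols, among them the 9 genes Obp56a to Obp56i on 2R and the 4 genes Obp19a to Obp19d on X. Only 34 members have reads of their own, meaning that they overlap no other gene and share no identical set of counts with one. Obp50b and Obp50c occupy the same span and have identical counts. Obp57d has the counts of Cpr57A, a cuticle protein gene that encloses it. Obp51a lies wholly inside another annotated gene on the opposite strand that is not analysed here. It seems that any read within a gene's span was counted, whatever its strand, so values of these members cannot be assigned to them alone.

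The largest supplier of the family's transcripts differed between the 2 body parts, while Obp99c and Obp44a were large suppliers in both. All 50 members summed to 1877 ± 5.31 CPM in abdomen at 2 h, 2539 ± 23.3 CPM in head-thorax at 26 h and 2693 ± 36.4 CPM in head-thorax at 2 h (SD, n = 2 split libraries of 1 pool). That was 0.212%, 0.232% and 0.263% of all counts in the same order. In abdomen Obp56g supplied 28.5% of the family's CPM, Obp99c 17.0%, Obp51a 16.7% and Obp44a 11.5%. In head-thorax at 26 h Obp99b supplied 41.2%, Obp99c 20.8% and Obp44a 13.2%. In head-thorax at 2 h Obp99b supplied 31.2%, Obp99c 21.3%, Obp44a 17.5% and Obp19d 10.8%. The 3 most abundant members made up 62.2% of the family's CPM in the abdomen pool, 75.2% at 26 h and 70.0% at 2 h in head-thorax. At the low end, 25, 26 and 24 of the 50 members averaged under 1 CPM, and 6, 4 and 6 had no count in either library.

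**Figure D1:**
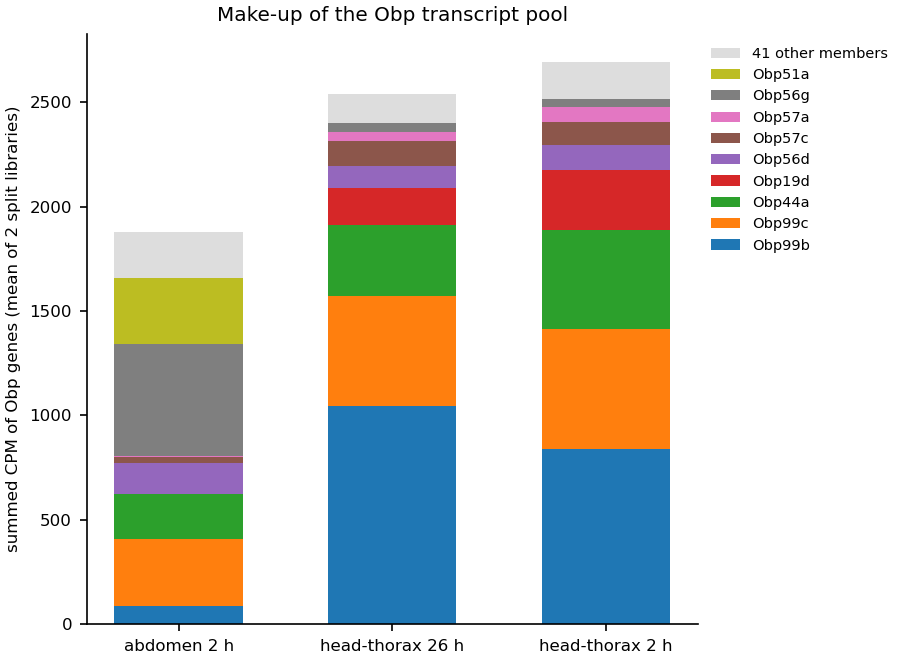
Stacked bars give the summed CPM of the Obp genes in each pool (y axis, mean of 2 split libraries), with 9 abundant members in colour and the other 41 in light grey. Obp56g and Obp51a fill much of the abdomen bar, whose total is 1877 CPM, and Obp99b is the largest segment of both head-thorax bars.

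Levels of different genes were compared per kilobase of exon. In abdomen Obp56g led the family at 1081 CPM per exon kb, the rank of 43 among 16735 named genes, and was followed by Obp51a (785.5 CPM per exon kb), Obp99c (478.3), Obp44a (201.4), Obp56d (158.1) and Obp99b (146.9). In head-thorax at 26 h Obp99b led at 1761 CPM per exon kb, a rank of 23, followed by Obp99c (789.3), Obp44a (312.5), Obp57c (211.7) and Obp19d (162.8). In head-thorax at 2 h Obp99b led at 1414 CPM per exon kb, a rank of 29, followed by Obp99c (858.6), Obp44a (438.5), Obp19d (263.0) and Obp57c (201.4). Obp57c stood above Obp19d at 26 h and below it at 2 h. The place of Obp99c depends on the length used, with 669 bases of exon in a span of 3576 bases. Per kilobase of whole gene span Obp99c was at 89.5 CPM in abdomen, 147.7 CPM in head-thorax at 26 h and 160.6 CPM in head-thorax at 2 h, below Obp44a in each pool (189.1, 293.4 and 411.7 CPM per kb of span). Obp56g in abdomen and Obp99b in both head-thorax pools led by either length.

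The first comparison set abdomen at 2 h against head-thorax at 2 h. A gene was called higher or lower when edgeR's quasi-likelihood test gave a Benjamini-Hochberg adjusted p under 0.05, over all 14694 genes tested, and the difference was at least 2-fold. With 1 pool per body part the p-values measure the spread between split libraries of these pools, not between groups of flies. Of the 50 members 38 passed the filter on low counts and 12 did not. Among the 38, 11 were higher in abdomen and 21 lower, whereas 35.6% of all genes tested were higher and 21.7% lower. The median log2 ratio was −1.33 over the tested members and 0.06 over all genes tested. Over the 25 tested members with reads of their own, 8 were higher and 15 lower, and the median was −1.98.

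The abdomen-biased group was led by members known from seminal fluid. Of the 7 members listed for that role, 5 were higher in abdomen, 0 were lower, and Obp8a and Obp56e were not called, with a median log2 ratio of 8.96. DESeq2's Wald test also gave 5 higher and 0 lower, and at any fold 1 (Obp56e) was lower at an unadjusted p under 0.05 by edgeR. Their summed level in abdomen was 953.3 ± 17.0 CPM, against 64.3 ± 1.89 CPM in head-thorax at 2 h (SD, n = 2 split libraries). The same tilt was seen in the ejaculatory duct and bulb markers, all 4 measured of which were higher in abdomen, which in abdomen summed to 4763 CPM, against 14.98 CPM in head-thorax at 2 h.

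Obp56g, a seminal protein made in the ejaculatory bulb and needed for the mating plug, had 538.1 and 532.4 CPM in the abdomen libraries, against 40.9 and 43.8 CPM in head-thorax at 2 h. The log2 ratio was 3.67 ± 0.03 SE (12.7-fold, adjusted p = 1.1e-93 by edgeR). Obp56g was thus higher in abdomen with no overlap of libraries, yet its mean of 42.3 CPM also made it one of the more abundant members in head-thorax. Obp51a, a seminal fluid protein gene, had 318.3 and 307 CPM in abdomen, against 0.25 and 0.365 CPM in head-thorax at 2 h. Its log2 ratio was 10.02 ± 0.08 SE, the largest fitted ratio among members with more than 3 counts in each pool. Obp22a, on 2L at 1991381 to 1992160, had 36.3 and 34.6 CPM in abdomen, against 1 count in each head-thorax library at 2 h. Its ratio of 949.6 has a 95% counting interval from 262.5 to 7846, which covers counting error only.

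Obp56f and Obp56i, 2 further seminal members of the Obp56 cluster, had at most 2 counts in head-thorax at 2 h. Obp56f had 43.3 and 39.8 CPM in abdomen, against 2 counts and 0 counts in the head-thorax libraries, a ratio of 1110 (counting interval 307 to 9174). Obp56i had 12.8 and 10.5 CPM in abdomen, against 1 count and 0 counts, a ratio of 614.8 (110 to 24318). The 2 seminal members that were not called behaved otherwise. Obp8a, on X at 9214876 to 9215699, had 8.53 and 8.61 CPM in abdomen against 5.82 and 5.84 CPM in head-thorax at 2 h (log2 ratio 0.56 ± 0.11 SE). Obp56e had 8.11 and 8.39 CPM in abdomen against 15.9 and 15.7 CPM in head-thorax at 2 h (log2 ratio −0.93 ± 0.08 SE). An antisense RNA gene, asRNA:CR44509, covers 85.9% of Obp56e and had 215 and 314 counts in the abdomen libraries against 192 and 296 for Obp56e, so the strand of these reads cannot be told.

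Outside the seminal list, 6 members were also higher in abdomen. They were Obp50b and Obp50c, which are counted alike, Obp50d, Obp56a, Obp99a and Obp99d. Obp99a, on 3R at 29671657 to 29672334, had 38.1 and 40.7 CPM in abdomen, against 0.157 and 0.0456 CPM in head-thorax at 2 h (log2 ratio 8.42 ± 0.17 SE, 342-fold). That fold rests on 6 counts in head-thorax, and the log2 ratio was 9.69 without split library 1 of head-thorax at 2 h and 7.93 without split library 2. Obp99a lies in a cluster with Obp99d, which was called higher as well, and with Obp99b and Obp99c, which were not. Obp50b and Obp50c shared 15.6 and 15.2 CPM in abdomen, against 1 count in each head-thorax library at 2 h, a ratio of 413.8 (counting interval 114.2 to 3422). Obp50d was scarce, with 11 and 19 abdomen counts against 0 counts in head-thorax at 2 h, which is at least 9.13-fold higher with a floor of 3 counts over the pool. Obp56a had 18.6 and 19.5 CPM in abdomen, against 7.48 and 6.52 CPM (log2 ratio 1.43 ± 0.09 SE), and Obp99d averaged 0.544 CPM in abdomen against 0.0926 CPM.

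**Figure D2:**
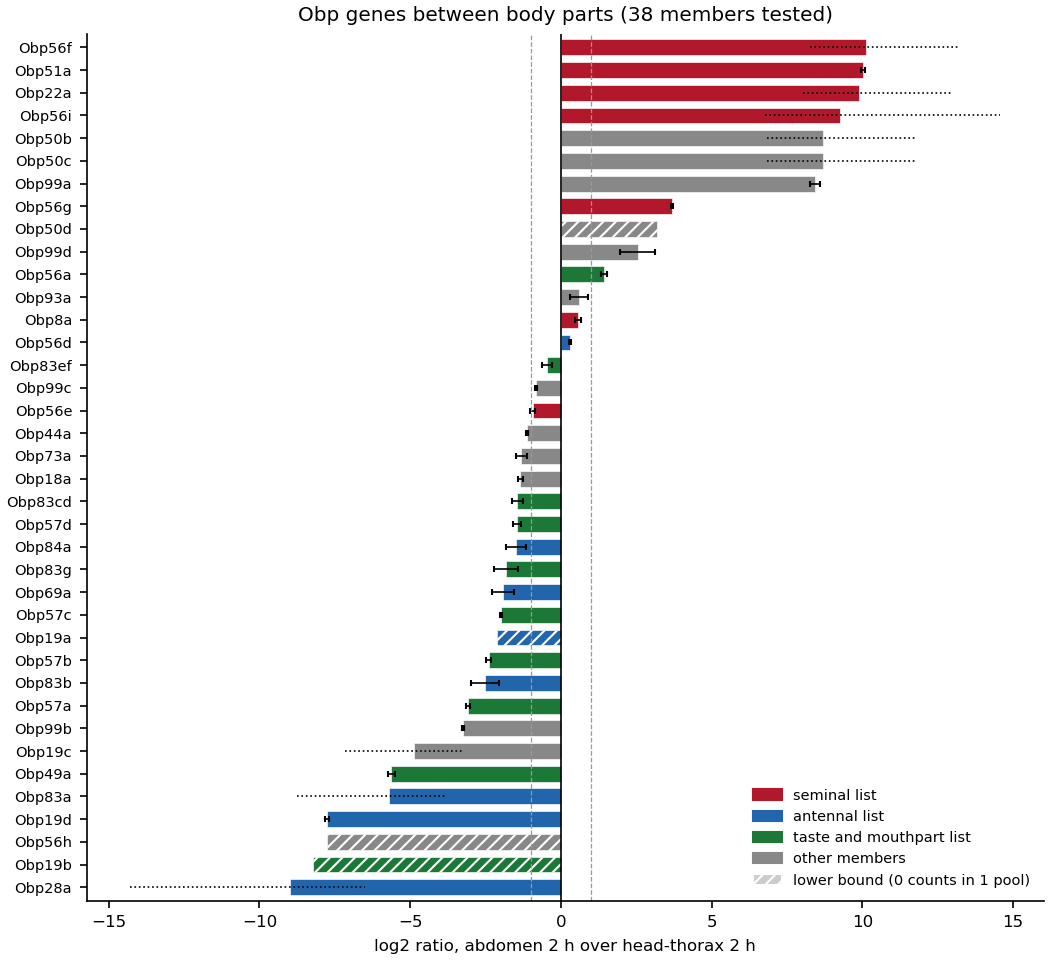
Bars give the log2 ratio of abdomen over head-thorax at 2 h (x axis) for the 38 members tested, coloured by list, with SE as capped lines, 95% counting intervals as dotted lines where a pool had 1 to 3 counts, and hatching for lower bounds. Seminal members such as Obp51a (10.02) stand toward the right end, but the seminal Obp56e is negative (−0.93). Antennal members such as Obp19d (−7.75) stand toward the left end, but the antennal Obp56d is positive (0.30). Obp19b and Obp56h, which are not on the antennal list, also stand at the left end. The dashed lines mark 2-fold.

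Members known from the antenna were mostly lower in abdomen. Of the 9 listed, 8 were tested, 7 were lower, 0 were higher and Obp56d was not called. Over all genes tested, 21.7% were called lower and 35.6% higher. DESeq2's Wald test gave 7 lower and 0 higher, and at any fold 1 (Obp56d) was higher at an unadjusted p under 0.05 by edgeR. The median log2 ratio of the 8 was −4.02, or −2.32 with members at 0 counts placed at their lower bound. In abdomen the list summed to 148.1 ± 1.84 CPM, against 422.1 ± 5.52 CPM in head-thorax at 2 h (SD, n = 2 split libraries), and in abdomen nearly all of that sum was Obp56d.

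Obp19d, a carrier found in olfactory and taste organs and located on X at 20419613 to 20420979 in the Obp19 cluster, dominated the antennal list in head-thorax. It had 1.35 and 1.33 CPM in abdomen, against 294.1 and 285.1 CPM in head-thorax at 2 h. The log2 ratio was −7.75 ± 0.06 SE (216-fold lower, adjusted p = 3.6e-97 by edgeR). Obp28a, an antennal member with a part in the response to floral odours, had 1 count and 0 counts in the abdomen libraries, against 9.11 and 7.76 CPM in head-thorax at 2 h. The head-thorax to abdomen ratio was 504.7, with a counting interval from 90.13 to 19975. Obp83a and Obp83b are neighbours on 3R whose products fill pheromone-sensing trichoid hairs. Obp83a had 1 count in each abdomen library, against 1.75 and 1.78 CPM in head-thorax at 2 h, a ratio of 52 (14 to 435.6). Obp83b had 0.127 and 0.170 CPM in abdomen, against 0.720 and 1.14 CPM (log2 ratio −2.51 ± 0.46 SE).

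The other antennal members, apart from Obp56d, were rare in both body parts. Obp19a had 0 counts in abdomen, against 0.219 and 0.228 CPM in head-thorax at 2 h, which is at least 4.38-fold lower. Obp69a, a member reported to change with male pheromone and social setting, had 0.338 and 0.312 CPM in abdomen, against 0.908 and 1.69 CPM (log2 ratio −1.92 ± 0.36 SE). Obp84a had 0.211 and 0.652 CPM in abdomen, against 1.44 and 1.19 CPM (log2 ratio −1.49 ± 0.33 SE, or −2.63 without split library 2 of abdomen). Obp59a, Obp69a and Obp84a each overlap another gene. Obp59a, which acts in the sensing of humidity, was not tested, at 0.0423 and 0.0283 CPM in abdomen against 0.157 and 0.274 CPM in head-thorax at 2 h. Obp56d was far more abundant in abdomen than the rest of the list, with 147.3 and 144.3 CPM in abdomen against 117.6 and 119.1 CPM in head-thorax (log2 ratio 0.30 ± 0.03 SE, short of 2-fold).

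Of 12 members known from taste hairs and mouthparts, 10 were tested. Of these, 8 were lower in abdomen, 1 was higher (Obp56a) and 1 was not called (Obp83ef), with a median log2 ratio of −1.91. Among the 7 tested that have reads of their own, 6 were lower and 1 was higher, with a median of −2.40. Over all genes tested, 35.6% were higher and 21.7% lower. Obp49a, a carrier of bitter compounds that dampens sweet-sensing neurons, had 0.718 and 0.737 CPM in abdomen, against 37.9 and 33.5 CPM in head-thorax at 2 h (log2 ratio −5.62 ± 0.12 SE). Obp57c was the most abundant of the list, at 29.5 and 27.7 CPM in abdomen against 113.6 and 110.7 CPM (−1.98 ± 0.04 SE). Its neighbours in the Obp57 cluster went the same way. Obp57a had 8.45 and 7.68 CPM in abdomen against 66.7 and 70.0 CPM (−3.09 ± 0.06 SE). Obp57b had 4.99 and 4.62 CPM against 25.9 and 24.2 CPM (−2.40 ± 0.08 SE). Obp19b, in the Obp19 cluster on X, had 0 counts in both abdomen libraries, against 449 and 370 counts in head-thorax at 2 h, and was at least 299-fold lower. Together with Obp19c, at 0.0564 CPM in abdomen against 1.45 CPM, all 4 genes of the Obp19 cluster were called lower in abdomen.

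Among the remaining head-biased members, Obp99b had the highest level. This gene, reported as male-biased in the fat body of the head, lies on 3R at 29716254 to 29716896. It had 84.8 and 89.7 CPM in abdomen, against 850.2 and 829.5 CPM in head-thorax at 2 h (log2 ratio −3.26 ± 0.03 SE, adjusted p = 6.5e-92 by edgeR). Obp56h, a member with reported effects on male mating behaviour and cuticular hydrocarbons, had 0 counts in abdomen, against 10.6 and 11.8 CPM, and was at least 217-fold lower. Obp56h lies 31510 bases from Obp56g and 48512 bases from Obp56i, both of which were higher in abdomen. Obp44a, a fatty acid carrier of glia, had 211.8 and 221.7 CPM in abdomen, against 481.6 and 462.1 CPM (log2 ratio −1.12 ± 0.03 SE). The Obp44a ratio was short of 2-fold with DESeq2 size factors (−0.98), with raw library totals (−0.91) and by DESeq2's Wald test (−0.98). Obp99c had 310.4 and 329.5 CPM in abdomen, against 576.7 and 572.1 CPM, and was not called at −0.84 ± 0.03 SE. Obp18a had 9.04 and 8.56 CPM in abdomen, against 22.1 and 22.5 CPM (−1.35 ± 0.08 SE). Of the 6 minus-C members, which lack a pair of the conserved cysteines, 2 were higher in abdomen (Obp99a and Obp99d), 2 lower (Obp44a and Obp99b) and 2 not called (Obp8a and Obp99c).

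The remaining tested members were scarcer. Obp57d, Obp73a, Obp83cd and Obp83g were called lower in abdomen at log2 ratios between −1.83 (Obp83g) and −1.31 (Obp73a), from means of 0.283 to 3.05 CPM in abdomen against 1.005 to 8.38 CPM in head-thorax at 2 h. Obp93a, at 1.11 CPM in abdomen against 0.769 CPM, and Obp83ef, at 2.52 against 3.53 CPM, were not called. The 12 members left out by the filter on low counts averaged at most 0.198 CPM in abdomen (Obp58c), 0.271 CPM in head-thorax at 26 h (Obp56c) and 0.215 CPM in head-thorax at 2 h (Obp59a).

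**Figure D3:**
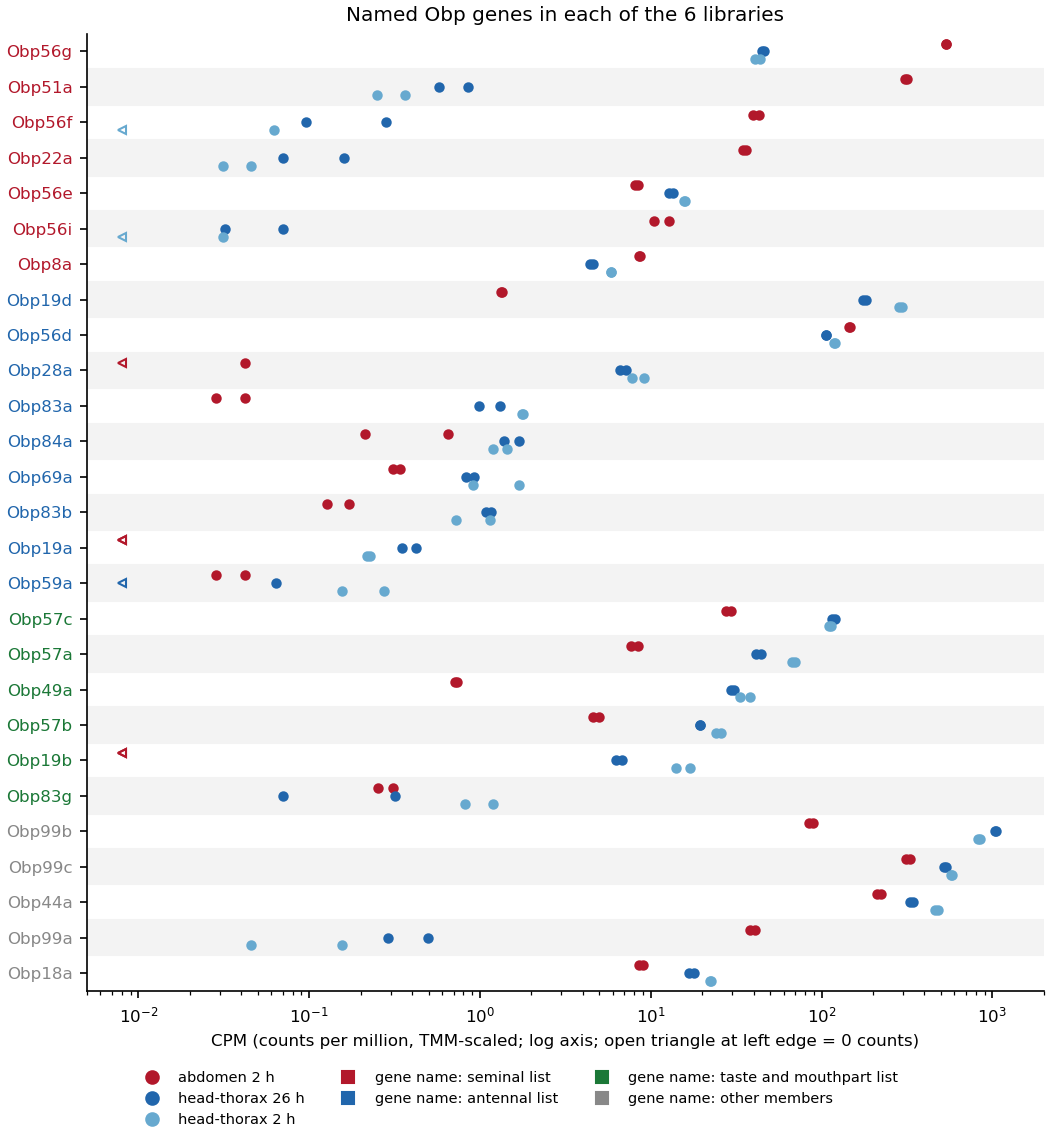
Points give the CPM (x axis, log scale) of the named members in each of the 6 libraries, with abdomen at 2 h in red, head-thorax at 26 h in dark blue and head-thorax at 2 h in light blue, and open triangles at the left edge for 0 counts. The split libraries of abundant members such as Obp56g lie on top of each other, while those of rare members such as Obp84a lie apart.

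Other genes of the olfactory pathway were lower in abdomen where they were called. Of 21 listed genes that are not members, 19 had a row and 9 were tested, of which edgeR called 6 lower and 0 higher (0 also at an unadjusted p under 0.05) and DESeq2's Wald test 7 lower and 0 higher, with a median log2 ratio of −2.47. Over all genes tested, 35.6% were called higher and 21.7% lower. Orco, the shared co-receptor of odorant receptors, was at −2.72 ± 0.24 SE, and Ir76b, a co-receptor of ionotropic receptors, at −2.47 ± 0.36 SE. The pheromone carrier lush, of the same protein family, was at −1.70 ± 0.37 SE. The 3 tested genes not called were Snmp2 (−0.20 ± 0.09 SE), Snmp1 (−0.21 ± 0.11 SE) and Ir25a (−0.92 ± 0.21 SE). Their means in head-thorax at 2 h were 12, 7.89 and 2.545 CPM. In head-thorax at 2 h lush was at 1.03 CPM and Orco at 3.49 CPM, while Rdl, a GABA receptor gene used widely in the nervous system, was at 108.9 CPM and made up most of the list's sum of 139.7 CPM.

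The second comparison set head-thorax at 26 h against head-thorax at 2 h, at 1 pool per time. It shares the 2 h head-thorax pool with the first comparison. Most members were not called. Of the 38 tested, 3 were higher at 26 h (Obp51a, Obp56f and Obp99a) and 2 lower (Obp19b and Obp83g), whereas 6.21% of all genes tested were higher and 1.5% lower. The median log2 ratio was −0.26 over the members and 0.00 over all genes tested.

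Obp19b was the only called member above 10 CPM in either pool. It had 6.77 and 6.26 CPM at 26 h, against 14.1 and 16.9 CPM at 2 h, with no overlap of libraries. The log2 ratio was −1.23 ± 0.10 SE (2.34-fold lower, adjusted p = 2.3e-20 by edgeR), and with the 2-fold limit tested inside the model the adjusted p was 0.085. Obp83g, a member listed for mouthparts, had 0.0706 and 0.320 CPM at 26 h, against 1.19 and 0.821 CPM at 2 h, from 12 and 56 counts over the pools. Its log2 ratio was −2.34 ± 0.42 SE (adjusted p = 2e-06 by edgeR), with −1.69 and −3.80 when split library 1 or 2 at 26 h was left out.

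The 3 members called higher at 26 h were abdominal members at trace level in head-thorax. Obp51a had 0.847 and 0.575 CPM at 26 h, against 0.250 and 0.365 CPM at 2 h, or 42 and 16 counts over the pools (log2 ratio 1.23 ± 0.39 SE, adjusted p = 0.0073 by edgeR). Obp99a had 0.494 and 0.288 CPM at 26 h, against 0.157 and 0.0456 CPM, or 23 and 6 counts (1.75 ± 0.59 SE, adjusted p = 0.012 by edgeR). Obp56f had 11 counts at 26 h against 2 at 2 h (adjusted p = 0.048 by edgeR), a ratio of 4.97 with a counting interval from 1.08 to 46.1. None of the 3 was called without split library 1 of head-thorax at 26 h, with adjusted p of 0.15 for Obp51a, 0.17 for Obp99a and 0.48 for Obp56f. Without split library 2 of head-thorax at 2 h, Obp99a (0.11) and Obp56f (0.23) were not called, and without split library 1 of that pool Obp51a (0.16) was not. Obp56f was also not called with raw library totals (0.059), with totals free of mitochondrial genes (0.051) or by DESeq2's Wald test (0.095).

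The levels of abdominal members in head-thorax were set beside those of male reproductive markers, as a percentage of the abdomen level. Obp51a stood at 0.226% at 26 h and 0.0954% at 2 h, Obp22a at 0.333% and 0.105%, Obp56f at 0.447% and 0.0901%, and Obp99a at 0.973% and 0.281%. The seminal peptide gene SP stood at 0.205% at 26 h and 0.0907% at 2 h, Acp36DE at 0.218% and 0.126%, and the ejaculatory bulb protein gene Ebp at 0.206% and 0.105%. The other accessory gland genes stood at 0.166% and 0.156% (Acp26Aa), 0.141% and 0.0989% (Acp62F), 0.135% and 0.029% (Acp98AB) and 0.121% and 0% (Acp29AB). EbpII stood at 0.218% and 0.116% and Dup99B at 0.213% and 0.0972%. At 2 h Obp51a, Obp22a and Obp56f were within the range of these accessory gland, duct and bulb markers. Obp99a was above that range at both times. So were Obp50b and Obp50c, counted alike (0.655% at 26 h and 0.242% at 2 h), and Obp56i (0.441% and 0.163%). The 2 h counting intervals of these higher members reach into the marker range. At 26 h Obp51a was above each of these markers, with the counting intervals of several overlapping its own. The testis genes stood above Obp51a at both times, from 0.418% (dj) to 10.7% (bam) at 26 h. At 2 h they ran from 0.108% (dj), with a counting interval overlapping that of Obp51a, to 11.1% (bam). Obp56g, at 8.5% and 7.86%, stood well above the accessory gland, duct and bulb markers other than Gld, which was at 8.35% and 6.63%. The testis gene bam, at 10.7% and 11.1%, stood above Obp56g. Obp8a, at 52.4% and 67.9%, and Obp56e, at 159% and 191%, stood well above all of these markers.

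The marker lists themselves differed between the head-thorax pools. Over all genes tested, 6.21% were called higher at 26 h and 1.5% lower. The 6 accessory gland genes summed to 6.71 CPM at 26 h and 3.65 CPM at 2 h, with 1 of 6 called higher (Acp98AB). The 4 duct and bulb genes summed to 22.6 and 14.98 CPM, with Dup99B called higher, and the 7 testis genes to 7.63 and 2.77 CPM, with 4 called higher. Both measured oenocyte genes were called higher, at a sum of 2529 CPM at 26 h and 1015 CPM at 2 h. The 6 fat body genes summed to 516.8 and 1202 CPM, mostly Lsp2 (374.4 and 971 CPM), which was called lower. The other 4 tested were not called, among them Yp1 (−0.09) and Yp3 (0.07). In abdomen the fat body list summed to only 14.62 CPM. The part of abdominal material, oenocytes or fat body in the Obp differences was not tested.

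**Figure D4:**
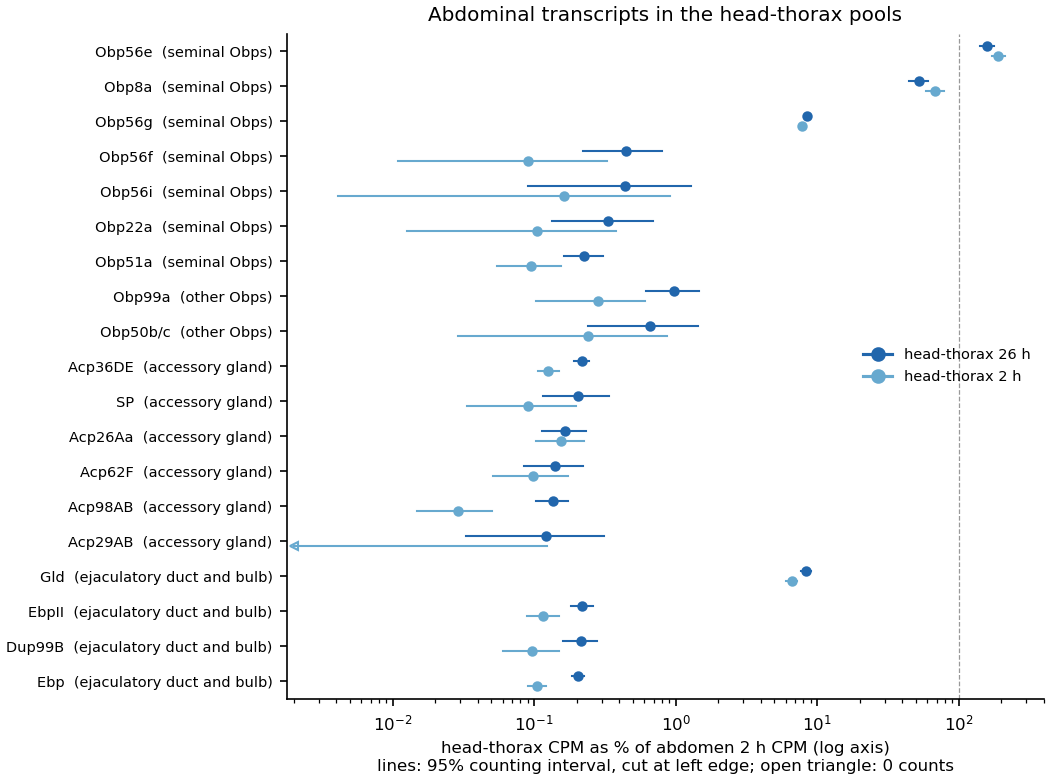
Points give the head-thorax CPM as a percentage of the abdomen CPM (x axis, log scale), at 26 h in dark blue and 2 h in light blue, with 95% counting intervals as lines, for abdominal Obp genes and for markers of the accessory gland and of the ejaculatory duct and bulb. Obp51a, at 0.226% and 0.0954%, is within the range of the markers other than Gld at 2 h and above them at 26 h, while Obp56g, at 8.5% and 7.86%, stands beside Gld.

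The abundant head members had small ratios between the times, none past 2-fold. Obp99b had 1043 and 1049 CPM at 26 h, against 850.2 and 829.5 CPM at 2 h (log2 ratio 0.32 ± 0.03 SE, adjusted p = 6.7e-20 by edgeR). Obp19d had 175.6 and 182.9 CPM at 26 h, against 294.1 and 285.1 CPM (−0.69 ± 0.03 SE), and Obp44a had 330.8 and 341.7 CPM, against 481.6 and 462.1 CPM (−0.49 ± 0.03 SE). In these 3 genes the libraries of the 2 times did not overlap. That held for 26 of the 30 members with at least 10 counts in each pool, and the share over all genes is not given. Obp99c had 521.2 and 534.8 CPM at 26 h, against 576.7 and 572.1 CPM (−0.12), and Obp57c had 120 and 115.8 CPM, against 113.6 and 110.7 CPM (0.07).

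Of the antennal list none of 8 tested members was called at 26 h by edgeR, with a median log2 ratio of −0.24, while its sum was 296.9 ± 5.19 CPM at 26 h and 422.1 ± 5.52 CPM at 2 h (SD, n = 2 split libraries). DESeq2's Wald test also called 0, while at any fold 4 were lower and 0 higher at an unadjusted p under 0.05 by edgeR. Most of the gap between the sums is the difference in Obp19d. Obp69a had 0.917 and 0.831 CPM at 26 h, against 0.908 and 1.69 CPM at 2 h, and its libraries overlapped between the times. Obp28a had 7.13 and 6.58 CPM, against 9.11 and 7.76 CPM (−0.32), and Obp56d had 105.6 and 105.7 CPM, against 117.6 and 119.1 CPM (−0.16). In the taste and mouthpart list 2 of 10 were lower and 0 higher by edgeR and by DESeq2's Wald test. The median was −0.58, and at any fold 8 were lower and 1 higher at an unadjusted p under 0.05 by edgeR. The share of all genes at that looser cut is not given, so these counts show nothing particular to either list. Over all genes tested, 6.21% were called higher and 1.5% lower. Obp57a, at 44.3 and 41.5 CPM against 66.7 and 70.0 CPM (−0.67 ± 0.04 SE), and Obp49a, at 29.3 and 30.8 CPM against 37.9 and 33.5 CPM (−0.26), were short of 2-fold.

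The seminal list as a whole had 2 of 7 members called higher at 26 h by edgeR and 1 by DESeq2's Wald test, with a median of 1.23. No member was lower by either tool, while at any fold 3 were higher and 2 lower at an unadjusted p under 0.05 by edgeR. Of all genes tested, 6.21% were called higher and 1.5% lower. The list's sum was 64.1 ± 1.26 CPM at 26 h and 64.3 ± 1.89 CPM at 2 h (SD, n = 2 split libraries). Obp56g made up most of that sum, with 44.5 and 46.3 CPM at 26 h against 40.9 and 43.8 CPM at 2 h (log2 ratio 0.11). Obp56e had 12.8 and 13.5 CPM, against 15.9 and 15.7 CPM (−0.26), and Obp8a had 4.59 and 4.41 CPM, against 5.82 and 5.84 CPM (−0.37). Among olfactory pathway genes that are not members, 1 of 9 was higher, the carbon dioxide receptor gene Gr21a (1.72 ± 0.48 SE, 37 counts at 26 h and 10 at 2 h), and 0 were lower, also at an unadjusted p under 0.05 by edgeR, with a median of 0.05. DESeq2's Wald test called 0 of them in either direction.

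**Figure D5:**
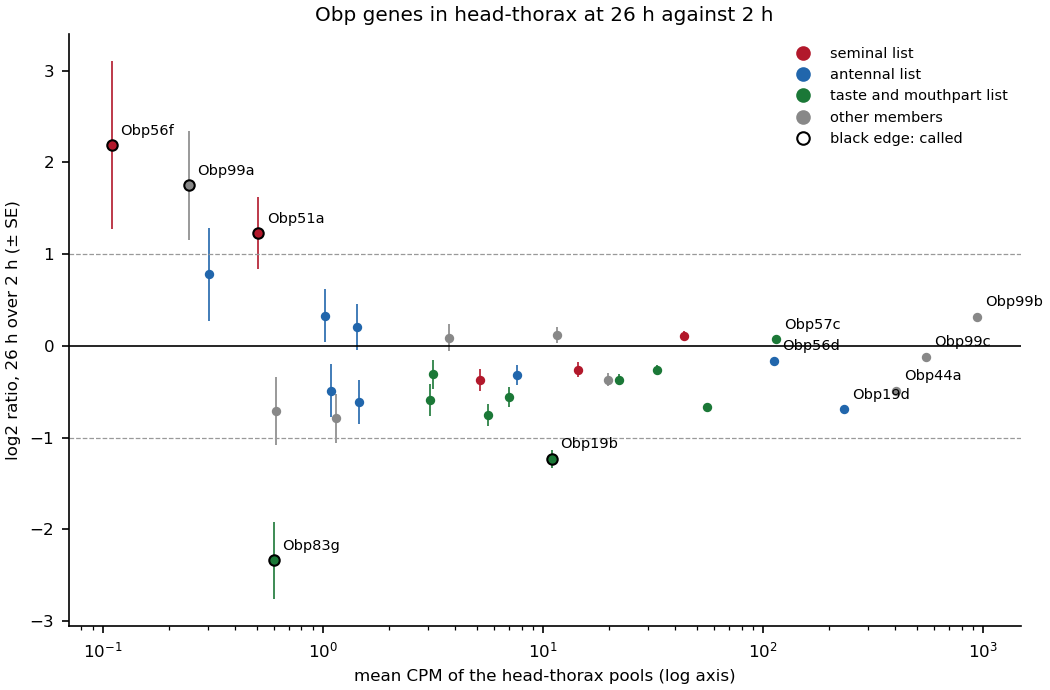
Points give the log2 ratio of head-thorax at 26 h over 2 h with its SE (y axis) against the mean CPM of the head-thorax pools (x axis, log scale), for 32 members with at least 10 counts at 26 h and 2 at 2 h. The 5 called members have a black edge, of which 4 lie below 1 CPM, and abundant members such as Obp99b (0.32) lie between the dashed 2-fold lines.

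The series asked about splitting, and the family shows what the division of a pool did to single genes. Genes with 10 or more counts over a pool were compared by a two-sided exact binomial test. Library 1 differed from library 2 in 1 of 32 members in the abdomen pool, 0 of 33 in head-thorax at 26 h and 2 of 32 in head-thorax at 2 h. Over all genes tested, 2.19%, 0.529% and 0.785% differed in the same order. The abdomen member was Obp99c, with a log2 ratio of library 1 over library 2 of −0.09. The members of head-thorax at 2 h were Obp44a (0.07) and Obp99b (0.05). With TMM effective sizes in place of library totals 0 members differed in head-thorax at 2 h, and in abdomen 1 still did. At an unadjusted p under 0.05, 18.8% of members differed in abdomen (10.9% of all genes), 15.2% in head-thorax at 26 h (7.21%) and 18.8% in head-thorax at 2 h (7.83%). All 3 that differed by library totals are abundant genes with small ratios.

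For members with at least 1000 counts over a pool, 11 in each pool, the libraries differed by at most 0.11 on the log2 scale in the abdomen pool, 0.09 at 26 h and 0.19 at 2 h in head-thorax. Over all members tested the largest difference was 1.53, 1.94 and 0.88 in the same order. Detection was lost in one library for few members. Of the 44 members counted in abdomen, 40 were found by both libraries. The same held for 42 of 46 members at 26 h and 40 of 44 at 2 h in head-thorax. The 4 members found in 1 library only had summed counts of at most 3 in abdomen and at most 2 in each head-thorax pool.

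The choice of library also set how firmly a ratio between pools was fixed. For abdomen against head-thorax at 2 h, 23 members had at least 10 counts in each pool, and their log2 ratio kept its sign in all 4 pairings of single libraries. The range over the 4 pairings had a median of 0.15 and was 1.90 at its widest, in Obp84a. For 26 h against 2 h, 26 of 30 such members kept their sign, and the 4 that did not were Obp69a, Obp73a, Obp83b and Obp84a. The widest range was 2.71, in Obp83g, while among the 11 members with at least 1000 counts it was 0.02 to 0.25. Pairings were computed for members only, so these counts were not compared with other genes.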

How the data were processed

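The authors deposited whole read counts for each FlyBase gene, not normalized, and a gene missing from a library's table was read as 0. Per the labels' protocols, RNA was extracted from pools of 40 body parts, and per the series design single-end reads were sequenced on a HiSeq instrument, with split libraries on separate lanes of the same flow cell. No aligner, counting tool or genome build is named in the sources. Of 16942 identifiers 16735 matched a symbol of BDGP6.54. In 99.71% to 99.92% of nested gene pairs (inner gene with 20 counts or more) the outer gene's count was no lower than the inner one's, so overlapping genes seem to share reads.

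CPM were computed here from effective library sizes by trimmed mean of M values (TMM), and levels per kilobase of merged exons. The quasi-likelihood test of edgeR 4.0.16 compared the pools (filterByExpr, all 6 libraries in 1 fit, 3 residual degrees of freedom, technical CV 1.63%) in R 4.3.3, after the steps had been tested on simulated data. For a pool at 0 counts, 3 counts were put in its place and the fold is called a lower bound; at 1 to 3 counts the ratio has an exact 95% interval. Intervals and floors cover counting error only. Split libraries were compared by exact binomial tests against the share given by library totals. Alternatives were other scalings, filters, tools, a replicate block and leaving out each library.

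Members reaching a mean of 20 CPM in any pool, members of the seminal and antennal lists and members called at 26 h were named with their values, and others were named where 5 or fewer fell in a group or after their values were seen. The members and all gene lists were chosen with earlier results of these data known. No sequences were used.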

Additional observations from a re-analysis of the deposited data

How the results depend on the processing

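Across the alternatives tried, 11 members called higher in abdomen became 10 to 13, and 21 called lower became 20 to 23, apart from the restriction to members with reads of their own (8 and 15). The 52 named ratios kept their call in 706 of 722 recomputed values, and none changed sign after being called. The 26 h calls were less firm. With the 2-fold limit tested in the model, 0 members were higher and 1 lower at 26 h, against 3 and 2. Over all genes that setting gave 317 higher and 88 lower, against 912 and 220, and DESeq2's Wald test gave 137 lower. Fitted on the head-thorax pools only, 1 member was higher, since Obp56f and Obp99a did not pass the count filter there and were not tested. Leaving out each library gave 0 to 3 members higher and 2 to 3 lower, with a lone library assumed to vary like the others, and Obp19c (−1.30) was called lower without split library 2 at 26 h. With shares from TMM effective sizes, 0 members differed between the split libraries of head-thorax at 2 h, against 2.

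Other scalings shifted the all-gene median (log2) in the abdomen comparison by 0.14 with DESeq2 size factors and 0.21 with raw totals, and at 26 h by 0.04 and −0.10. Nothing in the labels ties a library number across pools. Deviations of library 1 correlated at 0.24 between the head-thorax pools, and at −0.05 and 0.06 between abdomen and head-thorax at 2 h and 26 h, so not every pair passed 0.1 and the libraries were not treated as paired. With the replicate block 11 members were higher and 21 lower in abdomen, and 3 higher and 2 lower at 26 h. Members under 1 CPM, from 24 to 26 in each pool, are limited by depth.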
